A study of Homo sapiens with 6 samples.

Results

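Serpins and the plasminogen activator system were examined in A673, an established line of Ewing sarcoma, a tumour of bone and soft tissue. The members were the genes whose symbol is SERPIN followed by a clade letter from A to I and a number, with SERPINH1 left out, plus PLAU, PLAUR, PLAT and PLG. This rule took 38 of the 62700 rows of the table, each symbol on 1 row. Of these, 37 are described, 33 serpins and 4 genes of plasminogen activation. The 6 RNA-seq libraries were 3 of the parental line, labelled wildtype for EWS-FLI1, and 3 of a line labelled EWS-FLI1 knockout. EWS-FLI1, the oncogene of this tumour, joins a part of EWSR1 to the DNA-binding end of the ETS factor FLI1. Both genotypes grew in the same serum-containing medium. The labels do not say whether the knockout was 1 clone or a pool, or whether replicates were separate cultures. A difference between clones and the loss of the fusion can thus not be told apart, and the replicate spread behind every p-value may be technical only.

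Plasminogen activators cut the inactive proenzyme plasminogen into plasmin, a protease that dissolves fibrin and degrades pericellular matrix. Urokinase, encoded by PLAU, acts mostly at the cell surface on its receptor uPAR, encoded by PLAUR, while the tissue-type activator, encoded by PLAT, acts mostly on fibrin. Serpins are a family of proteins that mostly inhibit serine proteases by presenting a reactive loop as bait and trapping the protease that cuts it. SERPINF2, or alpha-2-antiplasmin, is the main inhibitor of plasmin. In solid tumours and in wound fibroblasts, urokinase and its receptor are known for their part in cell migration and matrix turnover.

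Library totals, in units of 1e6 estimated counts, lay between 301.6 and 342.6. Levels are given as CPM, a gene's count per 1e6 counts of its library, after TMM scaling, which equalises libraries on the bulk of their genes. A floor of 3 counts corresponded to between 0.00752 and 0.0117 CPM, a limit that covers counting error only. The fusion partners were checked in every library. EWSR1 lay at 300.005, 288.2 and 290.7 CPM in parental libraries against 240.6, 252.0 and 242.0 CPM after knockout. For FLI1 the levels were 39.6, 41.9 and 40.6 CPM against 53.7, 54.8 and 50.8 CPM. A gene count adds the fusion transcript to the normal transcripts, so these values do not check the knockout. The summed level of 6 Ewing sarcoma markers lay between 1553 and 1594 CPM in parental and between 275.1 and 285.8 CPM in knockout libraries, and all 6 were lower in the knockout. Of 6 fibroblast markers all 6 were higher, with sums of 371.6 to 394.3 and 45300 to 46280 CPM. Sums for 6 hepatocyte markers, a cell type rich in serpins, lay between 3.82 and 4.13 CPM and between 1.99 and 3.97 CPM, with 2 higher and 2 lower. Knockout replicate 3 stood apart on these markers: ALB was 0.0274, 0.0116 and 0.686 CPM in the knockout libraries and at most 0.0150 CPM in the parental ones, and APOB was 0.113, 0.131 and 0.352 CPM after knockout. Squamous keratins KRT5 and KRT14 averaged at most 0.0245 CPM in either genotype. Endothelial markers summed to between 0.855 and 0.935 CPM in parental and between 8.68 and 9.45 CPM in knockout libraries, with 3 of 6 higher, 1 lower and 2 not called. PECAM1 alone made up most of that rise, from a mean of 0.151 to 8.22 CPM. The 6 leukocyte and megakaryocyte markers summed to at most 2.57 CPM, with 2 higher, 1 lower and 1 not called among 4 tested. PTPRC rose from a mean of 0.127 to 1.49 CPM, while ITGA2B fell from 2.02 to 0.340 CPM. The part of other cell types in the results below was not tested, and in bulk RNA fewer cells of a type and less RNA per cell cannot be told apart.

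Of the 37 members described, 26 passed the filter on low counts and were tested, among them 5 that reached the filter level in 1 genotype only and so had to differ. At an edgeR quasi-likelihood adjusted p under 0.05, 17 were higher and 7 lower in the knockout, and 2 were not called. Over all 28485 tested genes, 73.8% were called, 36.3% higher and 37.5% lower. Among the tested members these shares were 92.3%, 65.4% and 26.9%. The median log2 fold change of the tested members was 1.46 against -0.06 over all tested genes. Non-overlapping groups were found for 25 members, 17 above and 8 below, or 96.2% against 76.7% of all tested genes. Of the members, 11 had a mean of at least 1 CPM in a genotype, and all 11 were called, 7 higher and 4 lower, where 87.7% of genes at that level were called in either direction. Together the 37 genes took 0.0598%, 0.0602% and 0.0595% of all estimated counts in the parental libraries. Their share in the knockout libraries was 0.176%, 0.181% and 0.178%.

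**Figure D1:**
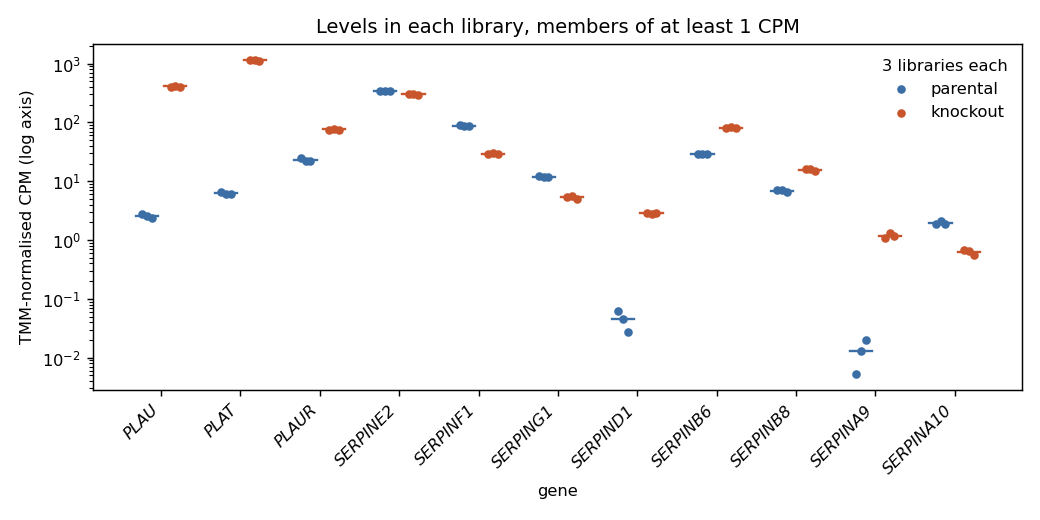
TMM-normalised CPM on a log axis for the 11 members of at least 1 CPM in a genotype, with 1 point per library and a bar at the mean of 3 libraries. The 2 genotypes do not overlap for any of these genes, nor for 76.7% of all tested genes. PLAT, PLAU, SERPIND1 and SERPINA9 stand farthest apart, and SERPINE2 the least. SERPINA9 passed the filter through the knockout libraries only and so had to be higher.

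Promoter sequences of 29 of the 37 members were found in RefSeq (GRCh38.p14), in 44 windows of 250 bases before an annotated start. The members without an entry used here were PLAT, SERPINA2, SERPINB10, SERPINB11, SERPINC1, SERPINF1, SERPINF2 and SERPING1. Motifs were searched on both strands. The AP-1 motif TGANTCA was held by 10 of the 44 windows, those of PLAUR, SERPINB2, SERPINB5, SERPINB7, SERPINB8, SERPINB12, SERPINB13, SERPINE3 and SERPINI2, and by 6.57% of all 35116 windows. Of these 9 genes PLAUR, SERPINB7 and SERPINB8 were higher, SERPINB2, SERPINB5 and SERPINB13 lower, and 3 were not called or not tested. The SMAD motif CAGACA was in 10 windows (13.6% of all), the TATA motif TATAAA in 8 (10.7%), the E-box CACGTG in 1, that of SERPINE2 (6.34%), and the ETS repeat GGAAGGAA in 2, both of PLG (3.06%). AP-1 and SMAD matches overlapped in a SERPINB7 window. No match says only that these letters are not in the window.

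The stretches printed here were chosen after the values were seen. They show the chromosome 18 neighbours SERPINB7 and SERPINB2, which moved in opposite directions while both hold AP-1 letters, and the AP-1 match of PLAUR, which rose. Capitals mark motif matches, and each is given on the strand of its gene, 5′ to 3′. The SERPINB7 stretch (chr18:63777531-63777776, plus strand) lies before the start of 1 of its RefSeq transcripts and holds 2 AP-1 matches, a SMAD match overlapping one of them, and 2 TATA matches, 1 of them on the opposite strand. It was picked because its window held the most matches of the SERPINB7 windows, and it lies inside the gene, which starts at 63752935 in GENCODE 29. The window chr18:63752807-63753056 held no match, and the window chr18:63775168-63775417 held 2 AP-1 matches only. The SERPINB2 stretch (chr18:63887455-63887699, plus strand) holds 1 AP-1 and 1 TATA match. A SMAD match of SERPINB2, on the opposite strand 10 bases before the start, is cut by the end of the printed stretch and is not capitalised. Neither stretch overlaps an exon in GENCODE 29. For PLAUR, 27 bases around its AP-1 match are given (chr19:43670339-43670365, minus strand), and all of them are exonic in the GENCODE 29 annotation of the gene.
SERPINB7: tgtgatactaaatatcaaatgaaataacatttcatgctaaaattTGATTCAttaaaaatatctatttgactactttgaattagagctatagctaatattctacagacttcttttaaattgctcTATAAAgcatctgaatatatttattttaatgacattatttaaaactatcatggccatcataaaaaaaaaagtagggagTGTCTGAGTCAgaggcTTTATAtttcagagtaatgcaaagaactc
SERPINB2: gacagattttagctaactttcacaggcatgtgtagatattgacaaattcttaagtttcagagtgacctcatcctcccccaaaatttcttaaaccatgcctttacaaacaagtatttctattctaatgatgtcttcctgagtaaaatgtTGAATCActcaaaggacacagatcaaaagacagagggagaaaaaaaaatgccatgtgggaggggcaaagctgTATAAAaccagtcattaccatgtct
PLAUR: cacaactccaTGAGTCAgggccgagcc

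Both plasminogen activators rose. PLAT stood at 6.59, 6.19 and 6.04 CPM in the 3 parental replicates, against 1155, 1166 and 1100.5 CPM after knockout. The groups lay far apart (log2 fold change 7.51, SE 0.066, edgeR adjusted p = 5.24e-27). PLAU, on chromosome 10 from 73909177 to 73917497 (GRCh38, GENCODE 29), stood at 2.80, 2.60 and 2.42 CPM in the 3 parental replicates, against 405, 417 and 404 CPM after knockout. These groups were also far apart (log2 fold change 7.29, SE 0.069, edgeR adjusted p = 7.66e-27). The parental counts of PLAT and PLAU were 0.806% and 0.932% of the knockout counts. Among genes with at least 20000 counts in the knockout, the 20 with the lowest parental share kept 0.586% at the median. The parental counts of both activators thus lay close to the lowest shares seen for abundant genes, and what part of them such a share makes up was not tested. With that share of the knockout count subtracted, the log2 fold changes were 9.38 and 8.73. Fibroblasts are known to make both activators, and all 6 fibroblast markers moved in the same direction. Their part in these values was not tested.

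PLAU shares 916 of its 2950 exonic bases with C10orf55 on the opposite strand, and the labels do not state that strand was kept. C10orf55 averaged 0.0527 CPM in parental and 4.72 CPM in knockout libraries, a small part of the PLAU level, and reads of the shared bases may not be told apart.

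The urokinase receptor also rose. PLAUR, on chromosome 19 from 43646095 to 43670547, stood at 24.9, 22.2 and 22.1 CPM in the 3 parental replicates, against 75.1, 77.8 and 75.3 CPM after knockout. Every knockout library was higher (log2 fold change 1.72, SE 0.054, edgeR adjusted p = 8.85e-18). PLG, which encodes the substrate plasminogen and is made mainly by the liver, stayed at trace level. It stood at 0.0998, 0.0979 and 0.0777 CPM in the 3 parental replicates, against 0.0548, 0.0502 and 0.0689 CPM after knockout, between 13 and 38 counts each. The knockout libraries were all lower, but the log2 fold change of -0.66 (SE 0.35) did not pass (edgeR adjusted p = 0.0982). It passed as lower under scaling to library totals (-1.07, edgeR adjusted p = 0.00828) or by upper quartile factors (-0.86, edgeR adjusted p = 0.0287).

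Among the inhibitors of clade E, SERPINE2 fell slightly. SERPINE2, or protease nexin-1, inhibits thrombin and urokinase at the surface of cells and lies on chromosome 2 from 223975112 to 224039319. It stood at 346, 347 and 344 CPM in the 3 parental replicates, against 303, 307 and 290.4 CPM after knockout. The knockout libraries were all lower (log2 fold change -0.20, SE 0.046, edgeR adjusted p = 0.000498). The size of this fall rests on the scaling, at -0.41 with upper quartile factors and -0.63 with total counts only. SERPINE3, a little-studied relative, stood at 0.165, 0.228 and 0.213 CPM in the 3 parental replicates, against 0.1995, 0.0772 and 0.145 CPM after knockout. These groups overlapped, and the log2 fold change of -0.52 (SE 0.29) did not pass (edgeR adjusted p = 0.111). It passed as lower without knockout replicate 1 (-0.84, edgeR adjusted p = 0.0098), with total counts only (-0.95, edgeR adjusted p = 0.0134) and with upper quartile factors (-0.72, edgeR adjusted p = 0.0451). Of its 2608 exonic bases, 789 are shared with INTS6 on the opposite strand, which averaged 57.7 and 32.6 CPM, so its count is uncertain.

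A ratio of 2 genes inside a library does not depend on how libraries are scaled. The ratio of PLAUR to PLAU estimated counts was 8.89, 8.52 and 9.13 in parental and 0.185, 0.186 and 0.187 in knockout libraries, a difference of -5.57 on the log2 scale. Receptor counts thus exceeded ligand counts in every parental library and lay below them in every knockout library. The groups did not overlap, at p = 0.10 in a two-sided exact permutation test, the smallest value that 3 against 3 libraries allow. With the share between genotypes subtracted, the difference was -6.99.

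The order of the members by level changed between the genotypes. Levels between genes were compared as CPM per kilobase of the principal transcript of GENCODE 29, an approximation because the isoforms present were not resolved. In the parental libraries SERPINE2 came first at 157.5 ± 0.834 CPM per kilobase, followed by SERPINF1 at 56.2 ± 1.31 and PLAUR at 14.9 ± 1.03 (SD, n = 3 each). Of the members described, PLAT ranked the sixth, at 2.32 ± 0.106, and PLAU the eighth, at 1.12 ± 0.0819. In the knockout libraries PLAT came first at 421.5 ± 13.01 CPM per kilobase, then PLAU at 176.2 ± 3.23, SERPINE2 at 136.8 ± 3.97 and PLAUR at 49.2 ± 0.953. These 4 neighbours were separated by more than their SDs. Both activators thus lay above SERPINE2 and PLAUR per length in the knockout and below them in the parental libraries.

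Serpins of plasma and matrix outside clades A, B and E moved in both directions. SERPIND1, or heparin cofactor II, a thrombin inhibitor, stood at 0.0630, 0.0450 and 0.0276 CPM in the 3 parental replicates, against 2.91, 2.79 and 2.90 CPM after knockout. All knockout libraries were higher (log2 fold change 5.98, SE 0.19, edgeR adjusted p = 1.03e-17), from between 11 and 24 counts to between 722 and 800 counts. The gene lies inside PI4KA without sharing exonic bases. SERPINF1, or PEDF, a secreted factor that restrains blood vessel growth and is not a protease inhibitor, fell. It stood at 89.2, 86.0 and 85.5 CPM in the 3 parental replicates, against 29.1, 30.1 and 28.6 CPM after knockout (log2 fold change -1.57, SE 0.049, edgeR adjusted p = 7.27e-18). The groups were well separated. SERPING1, the inhibitor of the complement protease C1 and of kallikrein, stood at 12.4, 11.6 and 11.96 CPM in the 3 parental replicates, against 5.48, 5.60 and 5.02 CPM after knockout. It fell in every knockout library, by 1.16 on the log2 scale (SE 0.065, edgeR adjusted p = 3.41e-13).

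The remaining genes of these clades were below 1 CPM. SERPINF2, the plasmin inhibitor, stood at 0.242, 0.177 and 0.293 CPM in the 3 parental replicates, against 0.317, 0.482 and 0.610 CPM after knockout. It passed as higher (0.98, SE 0.24, edgeR adjusted p = 0.0014), and did not with total counts only (0.57, edgeR adjusted p = 0.0685). Knockout replicate 3, which also held the most ALB and APOB, was its highest library, and without it the value was 0.76 (edgeR adjusted p = 0.0214). SERPINI1, or neuroserpin, an inhibitor of the tissue-type activator in the nervous system, held 0.0867, 0.0688 and 0.0903 CPM and 0.227, 0.243 and 0.330 CPM. Every knockout library was higher (log2 fold change 1.70, SE 0.26, edgeR adjusted p = 5.27e-06). SERPINC1, or antithrombin, held between 0.0158 and 0.0370 CPM in parental and between 0.0617 and 0.0689 CPM in knockout libraries, from at most 19 counts (1.45, edgeR adjusted p = 0.0079). SERPINI2 held 1 count in 1 parental library and was not tested.

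**Figure D2:**
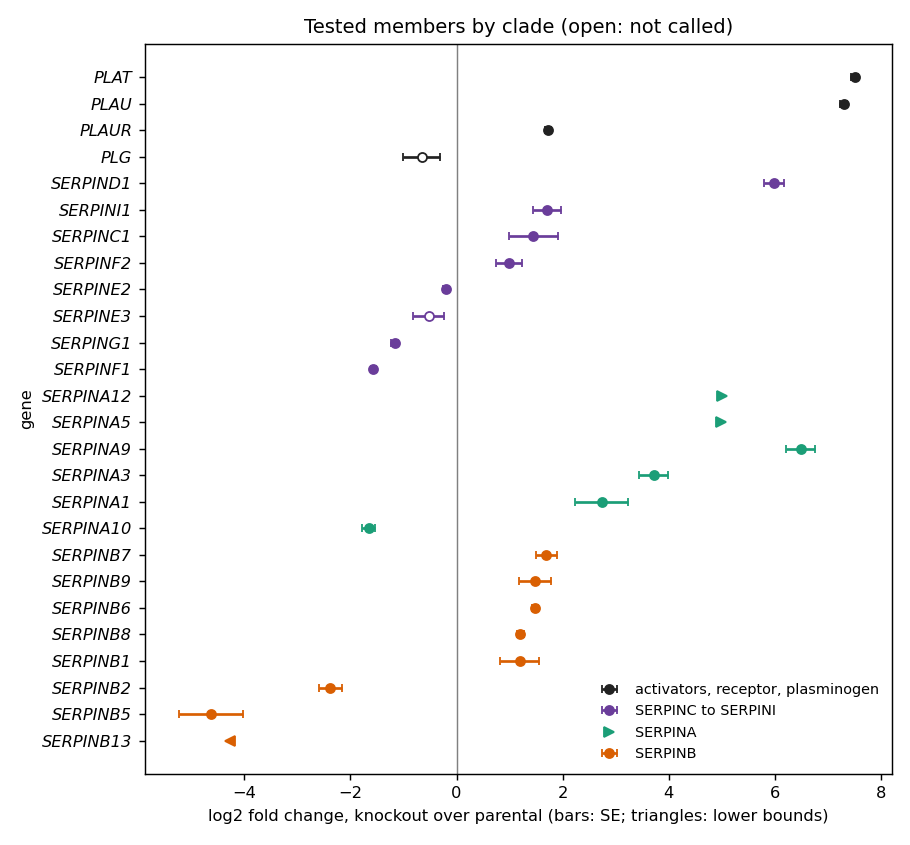
Log2 fold change, knockout over parental, of the 26 tested members by clade, with bars for the SE of the edgeR fit. Filled points were called and open points (PLG, SERPINE3) were not; triangles mark genes at 0 counts in 1 genotype, drawn at the lower bound that 3 counts over the group allow.

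Clade A holds mostly secreted plasma proteins of the liver, such as SERPINA1, or alpha-1-antitrypsin, which inhibits neutrophil elastase. Of its 11 members 6 were tested, with 5 higher and 1 lower and a median log2 fold change of 5.10, or 4.35 with genes at 0 counts set to their bounds. SERPINA5, SERPINA9 and SERPINA12, 3 of these 6, passed the filter through the knockout libraries only and so had to be higher, and nothing is read from the count or the median. Only SERPINA9 and SERPINA10 reached 1 CPM. SERPINA9, or centerin, known from germinal centre B cells, stood at 0.00525, 0.0132 and 0.0201 CPM in the 3 parental replicates, against 1.07, 1.33 and 1.18 CPM after knockout. It rose in every knockout library (log2 fold change 6.48, SE 0.27, edgeR adjusted p = 1.7e-15), and its parental libraries held between 2 and 8 counts. SERPINA10, the protein Z-dependent inhibitor of coagulation factor X, was the member that fell, from 1.91, 2.11 and 1.91 CPM to 0.669, 0.648 and 0.566 CPM. All knockout libraries were lower (-1.65, SE 0.13, edgeR adjusted p = 8.45e-11).

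SERPINA3, or alpha-1-antichymotrypsin, an acute-phase inhibitor of cathepsin G, stood at 0.0525, 0.0847 and 0.0276 CPM in the 3 parental replicates, against 0.681, 0.660 and 0.824 CPM after knockout (log2 fold change 3.71, SE 0.28, edgeR adjusted p = 4.46e-10). SERPINA1 held 0.0131, 0.0450 and 0.0426 CPM and 0.149, 0.143 and 0.385 CPM (2.74, SE 0.50, edgeR adjusted p = 0.000378). The groups did not overlap for either gene, and knockout replicate 3 was the highest library for each, as it was for the hepatocyte markers ALB and APOB. Without that library the log2 fold changes were 3.62 for SERPINA3 (edgeR adjusted p = 9.6e-07) and 2.12 for SERPINA1 (edgeR adjusted p = 0.00138), both still called. SERPINA3 also shares 1592 of its 5007 exonic bases with AL049839.2 on the same strand, so its count is uncertain. SERPINA5, the protein C inhibitor that also acts on urokinase, and SERPINA12, the adipokine vaspin, had 0 counts in all 3 parental libraries and summed to 65 and 66 counts in the knockout libraries. Against a floor of 3 counts over the parental group they were at least 31.7-fold and at least 32.2-fold higher. The other 5 genes of the clade did not pass the filter. SERPINA6, or corticosteroid-binding globulin, summed to 0 and 9 counts, SERPINA4 to 1 and 6, SERPINA11 to 0 and 1, and SERPINA2 and SERPINA7 to 0 in both genotypes.

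Clade B holds intracellular serpins, several of which protect cells against their own or leukocyte proteases. Of its 13 members 8 were tested, with 5 higher and 3 lower and a median of 1.20. These are 62.5% and 37.5%, where 36.3% and 37.5% of all tested genes were higher and lower. Of the 3 lower genes, 2 passed the filter through the parental libraries only, and nothing is read from the count. SERPINB6, a broadly expressed inhibitor of cathepsin G and trypsin-like proteases, stood at 29.3, 29.1 and 29.3 CPM in the 3 parental replicates, against 80.2, 83.5 and 80.8 CPM after knockout (log2 fold change 1.48, SE 0.048, edgeR adjusted p = 1.35e-17). SERPINB8, an inhibitor of furin, held 6.97, 7.07 and 6.57 CPM and 16.4, 16.3 and 14.8 CPM (1.20, SE 0.062, edgeR adjusted p = 8.28e-14). Both genes were higher in 3 of 3 knockout libraries. They were the only clade B genes at or above 1 CPM.

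At lower levels, SERPINB2, or PAI-2, an inhibitor of urokinase, fell. It stood at 0.730, 0.699 and 0.682 CPM in the 3 parental replicates, against 0.137, 0.181 and 0.0871 CPM after knockout (log2 fold change -2.38, SE 0.22, edgeR adjusted p = 1.66e-09). The groups did not overlap. SERPINB5, or maspin, an epithelial protein that does not inhibit proteases as typical serpins do, summed to 119 counts in parental and 3 counts in knockout libraries (-4.63, SE 0.60, edgeR adjusted p = 4.85e-07), and the value was -5.46 without knockout replicate 3 (edgeR adjusted p = 3.42e-05). SERPINB13, a keratinocyte inhibitor of cysteine cathepsins, summed to 85 and 0 counts, at least 19.4-fold lower against a floor of 3 counts over the knockout group. Both genes passed the filter through the parental libraries only and so had to be lower. Both are known from epithelia, whose 6 markers did not move one way: TP63 and EPCAM were lower (log2 fold changes -2.02 and -3.32), KRT8 was higher (5.35), CDH1 was not called, and KRT5 and KRT14 were not tested. Their sum was between 17.1 and 17.8 CPM in parental and between 35.5 and 36.8 CPM in knockout libraries. KRT8 alone made up that rise, from a mean of 0.777 to 31.8 CPM. TP63 fell from a mean of 16.1 to 3.97 CPM and EPCAM from 0.432 to 0.0421 CPM. The part of epithelial cells in the values of SERPINB5 and SERPINB13 was not tested. SERPINB7, or megsin, rose from 0.189, 0.151 and 0.178 CPM to 0.595, 0.544 and 0.541 CPM (1.69, SE 0.19, edgeR adjusted p = 5.27e-08). SERPINB9, the granzyme B inhibitor, rose by 1.48 on the log2 scale (SE 0.31, edgeR adjusted p = 0.000185), from between 0.0451 and 0.0767 to between 0.150 and 0.203 CPM. SERPINB1, an inhibitor of neutrophil proteases, held between 0.0397 and 0.0777 and between 0.0926 and 0.192 CPM (1.19, SE 0.36, edgeR adjusted p = 0.00554). The call of SERPINB1 was lost without knockout replicate 3 (0.86, edgeR adjusted p = 0.0668) and with total counts only (0.77, edgeR adjusted p = 0.0752). That replicate was the highest in ALB and APOB as well, and the part of this in the SERPINB1 value was not tested.

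The other 5 clade B genes were not tested, at 29 and 13 counts in parental and knockout libraries for SERPINB10, 39 and 14 for SERPINB12, 1 and 5 for SERPINB11, 6 and 2 for SERPINB3, and 8 and 1 for SERPINB4. SERPINB3 and SERPINB4 are near-identical copies, so the split of reads between them is uncertain. SERPINB11 and SERPINB3 share 620 exonic bases on opposite strands. SERPINB2 and SERPINB10 share 547 exonic bases on the same strand, and the split of reads between these genes is uncertain for that reason.

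Most members lie in gene clusters. On chromosome 14, 10 clade A genes lie within 344 kb, from 94280455 to 94624055. Its first gene, SERPINA10, fell, and the other 5 tested genes of the cluster, from SERPINA1 to SERPINA3, were higher, 3 of them (SERPINA5, SERPINA9 and SERPINA12) by way of the filter. On chromosome 18, 10 clade B genes lie within 543 kb, from 63476761 to 64019779. There SERPINB5 and SERPINB13 were lower, both by way of the filter. SERPINB7 was higher, its neighbour SERPINB2 lower and SERPINB8 higher, and the other 5 genes were not tested. The 3 clade B genes within 140 kb on chromosome 6, SERPINB1, SERPINB9 and SERPINB6, all rose, by 1.19, 1.48 and 1.48 on the log2 scale. Over all tested genes 36.3% were higher. SERPINB1 and SERPINB9 averaged at most 0.177 CPM in either genotype. The call of SERPINB1 was lost without knockout replicate 3 and with total counts only, and nothing is read from the count. SERPINF2 and SERPINF1, neighbours within 35 kb on chromosome 17, moved in opposite directions.

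**Figure D3:**
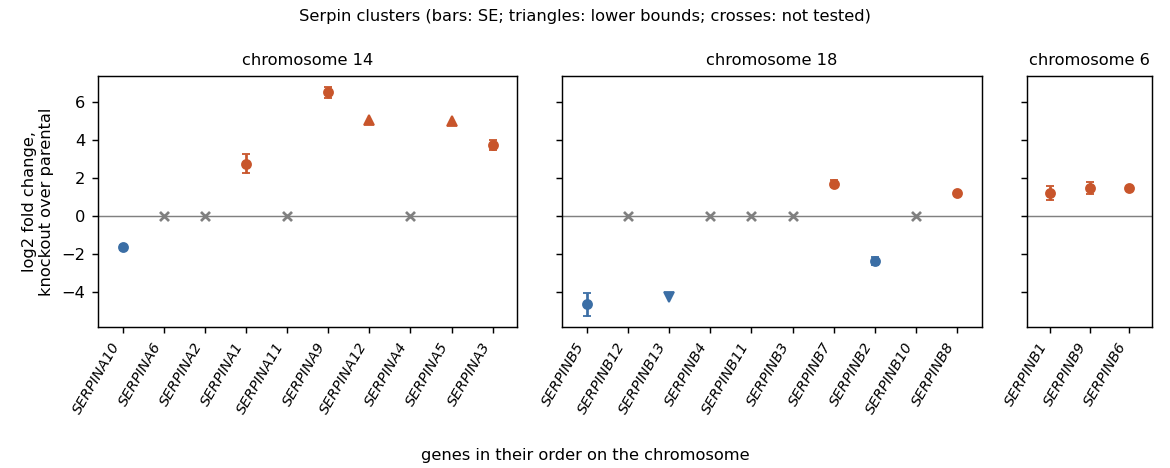
Log2 fold change, knockout over parental, of serpins in the clusters on chromosomes 14, 18 and 6, in their order on the chromosome and evenly spaced. Bars are the SE, triangles lower bounds and crosses genes that were not tested. On chromosome 18 the tested genes lie on both sides of 0, SERPINB5 and SERPINB13 below it by way of the filter. All 3 genes on chromosome 6 lie above 0, where 36.3% of all tested genes were called higher, and the call of SERPINB1 was lost under some alternatives.

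Other genes of the pathway were taken from 6 lists, whose counts stand against 36.3% higher and 37.5% lower over all tested genes. Some list genes passed the filter through 1 genotype only and so had to differ. Among the called ones, F7, F11 and KLKB1 averaged at most 0.0113 CPM in the knockout and PRTN3 0.0150 CPM. THBD, PRSS2 and ELANE averaged at most 0.00856 CPM in the parental libraries. Nothing is read from the counts or medians of the coagulation, inhibitor and protease lists that hold them. Of 8 genes listed as receptors of plasminogen or plasmin, 6 were higher and 2 lower, with a median log2 fold change of 0.90. The list includes CAMK1D, an intracellular kinase rather than a receptor, which is among the 6 higher genes. S100A10 and ANXA2, which form the annexin A2 complex that binds plasminogen and the tissue-type activator, rose from 0.407 ± 0.0423 to 76.3 ± 1.85 CPM and from 285 ± 3.45 to 2045 ± 84.2 CPM (SD, n = 3). KRT8 rose by 5.35 on the log2 scale (SE 0.077), and HMGB1 fell by 1.09 (SE 0.053). Of 18 tested partners and clearance receptors of uPAR among 19, 14 were higher and 3 lower, with a median of 2.24. The integrins ITGA3, ITGAV, ITGB3 and ITGB5 rose by 6.97 (SE 0.063), 4.09 (SE 0.062), 5.57 (SE 0.095) and 2.84 (SE 0.054). LRP1, which takes up activators bound to their inhibitors, averaged 195 ± 5.17 and 4102 ± 845 CPM, with 5070.3 CPM in knockout replicate 1 and 3512 and 3724 CPM in the others (4.39, SE 0.18, edgeR adjusted p = 1.37e-05), and was singled out after its values were seen.

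Of 10 tested genes among 13 other inhibitors, 6 were higher and 4 lower, with a median of 2.60. TFPI, the inhibitor of the tissue factor pathway, rose from 20.1 ± 1.08 to 134 ± 5.76 CPM, its relative TFPI2 from 2.08 ± 0.0504 to 31.0 ± 2.24 CPM, and SPINT1, an inhibitor of matriptase, from 3.65 ± 0.140 to 31.2 ± 1.38 CPM (SD, n = 3). SPOCK1, a matrix proteoglycan rather than an inhibitor of plasmin, rose by 6.02 (SE 0.066). Among the 4 lower genes were CPB2, at 3.71 ± 0.236 and 0.0851 ± 0.0179 CPM, and A2M, at 0.928 ± 0.108 and 0.114 ± 0.0930 CPM (SD, n = 3). Of 18 tested genes among 25 of coagulation and the contact system, 6 were higher and 7 lower, with a median of -0.43. These 13 of 18 are close to the 73.8% called over all tested genes. F3, the tissue factor that starts coagulation, rose from 2.52 ± 0.109 to 54.5 ± 1.91 CPM (SD, n = 3). The protein C receptor PROCR and the protease-activated receptors F2RL1 and F2RL2 rose by 3.82 (SE 0.084), 4.76 (SE 0.13) and 1.09 (SE 0.053). Among the 7 lower genes was F2R, a further protease-activated receptor, at 171 ± 4.33 and 108 ± 4.55 CPM (SD, n = 3).

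Of 22 tested genes among 35 proteases that serpins inhibit, 12 were higher and 5 lower, with a median of 1.20. These 17 of 22 are also close to the 73.8% called over all tested genes, where 36.3% were higher and 37.5% lower. HTRA1, a secreted serine protease of the matrix, rose from 2.56 ± 0.187 to 449 ± 14.3 CPM, while the mast cell tryptase TPSAB1 fell from 18.1 ± 1.33 to 0.191 ± 0.0120 CPM (SD, n = 3). Reads of TPSAB1 can be shared with its near-identical copies. The cysteine proteases CTSS and CASP8 rose by 4.58 (SE 0.078) and 3.31 (SE 0.062). Of 17 tested genes among 19 substrates of plasmin or factors it activates, 13 were higher and 2 lower, with a median of 1.91. MMP2, a gelatinase, rose from 48.5 ± 1.68 to 4237 ± 85.6 CPM, and the surface protein CDCP1 from 1.24 ± 0.106 to 292 ± 17.6 CPM (SD, n = 3). BDNF and the TGF-beta binding protein LTBP1 rose by 7.50 (SE 0.082) and 7.13 (SE 0.075). FGA, FGB and FGG stand in both the coagulation and the substrate list. Median values kept their sign under the other 3 scalings tried. With total counts only, 9 coagulation genes and 8 target proteases were lower in place of 7 and 5, and with upper quartile factors 9 and 7. Under both scalings 4 uPAR partners were lower in place of 3. Total counts also left 5 genes of the plasminogen receptor list and 12 substrates higher in place of 6 and 13. With DESeq2 size factors 7 coagulation genes were higher in place of 6, and 4 target proteases lower in place of 5.

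**Figure D4:**
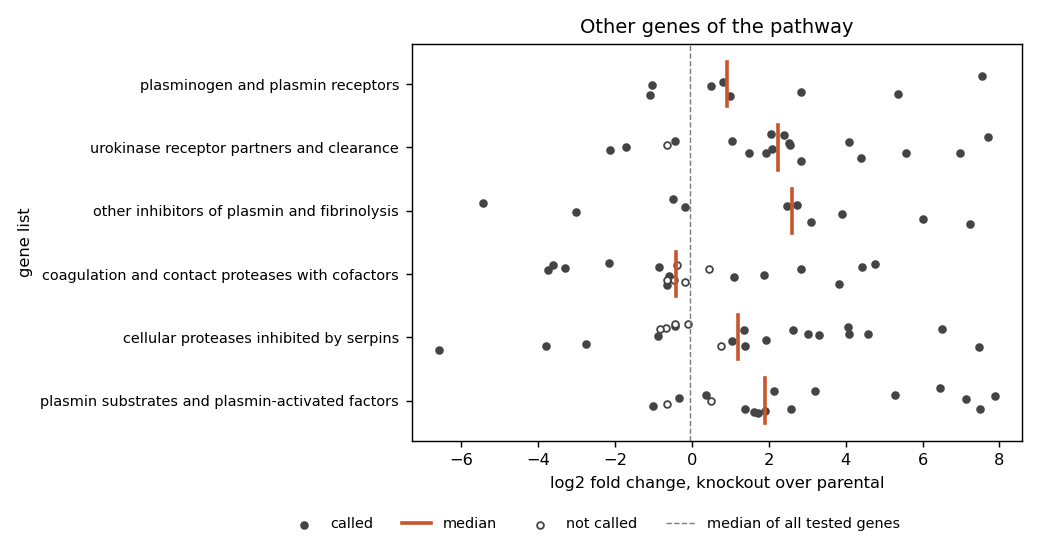
Log2 fold change, knockout over parental, of the tested genes of 6 lists around plasminogen activation, with 1 point per gene (filled: called; open: not called) and an orange bar at the median of the list. The dashed line is the median of all tested genes, -0.06; the medians of 5 lists lie above it and that of the coagulation list, -0.43, below.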

How the data were processed

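Messenger RNA was captured on oligo-dT beads and sequenced on an Illumina NovaSeq after a NEBNext Ultra II preparation, per the labels' protocols. The table the authors deposited holds estimated counts for 62700 genes, with a column for each library. The submitters' processing notes name kallisto 0.48.0 and build hg38. The annotation release, any trimming and the use of strand were not given in the sources used here. Reads that match several transcripts are shared out by kallisto, so values of near-identical genes are uncertain.

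The counts were rounded. In edgeR 4.0.16 (R 4.3.3), filterByExpr with a minimum count of 10 and a minimum total of 15 kept 28485 genes. After TMM scaling, a robust quasi-likelihood fit on genotype alone used the 6 libraries together, and its two-sided p-values were Benjamini-Hochberg adjusted across every gene kept (threshold 0.05). An SE is the log2 fold change over the square root of F. These steps were tested on simulated counts in which few genes changed, evenly in both directions. In these data most genes were called, so that test does not check the scaling. The ratio within a library was formed after adding 0.5 counts. Replicate pairs within a genotype differed beyond sampling noise (chi-square per degree of freedom from 11.2 to 78.1). Positions, exon overlaps and lengths are from GENCODE 29 and promoters from RefSeq, both GRCh38. Alternatives used DESeq2 1.42.0 and limma 3.58.1, other scalings, other filters, a term for the replicate number, leaving out each library and subtracting the share kept between genotypes.

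The members and gene lists were chosen with earlier results of these data known. Of the genes the rule takes, 1 is not reported here and enters no count of members. Members of at least 1 CPM in a genotype were described singly, others by values, counts or ranges, and up to 4 genes with the smallest adjusted p were named from each list. CAMK1D, LRP1, F2R, CPB2 and A2M were named in addition, the last 4 after their values were seen.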

Additional observations from a re-analysis of the deposited data

How the results depend on the processing

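Each member's log2 fold change was recomputed under up to 15 alternatives. The 11 members of at least 1 CPM kept direction and call in all 164 values obtained, and no member reversed. Subtracting the share kept between genotypes widens a strong difference by its construction. That alternative is thus no check of PLAT, PLAU or the ratio of PLAUR to PLAU. Of the values for tested members under 1 CPM, 202 kept, 3 lost and 5 gained a call. The changed calls belong to SERPINB1, SERPINF2, PLG and SERPINE3 and stand beside these genes. Requiring at least 1 CPM in 3 libraries left 6650 higher and 6975 lower among all genes, and 6 and 4 among members, since fewer genes were tested. The other alternatives left 15 to 18 members higher and 7 to 9 lower. Total counts only moved the median of all genes by -0.42 on the log2 scale, with 33.0% of calls higher in place of 49.1%, and upper quartile factors by -0.20, with 40.5% higher. With the replicate block, 17 members were higher and 7 lower, and over all genes 10041 and 10377. That block changed no call of a member; deviations of same-numbered libraries correlated between -0.0652 and -0.0299, so the numbers are not shown to pair the samples. The ratio of PLAUR to PLAU kept its direction under 9 alternatives, at exact p between 0.10 and 0.25. Depth limits the 26 members under 1 CPM, of which 11 were not tested.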

Other observations

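Rows of serpin pseudogenes were left out of the members. Of 8 such rows, 2 passed the filter. SERPINB9P1, a copy of SERPINB9, stood at 0.244, 0.236 and 0.236 CPM in the parental line and 0.340, 0.309 and 0.334 CPM after knockout (log2 fold change 0.46, SE 0.20, edgeR adjusted p = 0.0409). SERPINH1P1 held 0.195 ± 0.0165 and 0.209 ± 0.0254 CPM (SD, n = 3) and was not called. The other 6 rows held at most 1 count in a library.

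Some genes share exonic bases with members, and the use of strand was not stated. HMSD, which shares 370 exonic bases with SERPINB8 on the same strand, averaged 0.0611 CPM in parental and 0.644 CPM in knockout libraries. AC009802.1, antisense to SERPINB8 over 257 exonic bases, averaged 0.923 and 0.140 CPM. INTS6, antisense to SERPINE3, changed by -0.82 on the log2 scale. The part of shared reads in the values of SERPINB8 was not tested.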
